A study of Mus musculus with 18 samples.

Results

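The genes described here encode enzymes that break down threonine, make and interconvert serine and glycine, and pass the released carbon units to folate: Tdh, Gcat, Gldc, Shmt1, Shmt2, Mthfd2, Mthfd1l, Phgdh, Psat1 and Psph. They were chosen by symbol, with earlier results of these data known. All 10 were found among the 23421 genes of the expression table, with 15 of its 29851 RefSeq transcripts. The study concerns the Polycomb complex that methylates histone H3 at lysine 27, and 6 RNA-seq libraries, 1 per group, were used of its 18 samples. All are mouse cells of 129/Ola background. The library ES wild type came from E36 embryonic stem (ES) cells grown on gelatin with 15% serum and leukemia inhibitory factor, and the library ES Eed KO from E36 cells labelled as an EED knock-out, with Eed encoding a core subunit of that complex. The libraries EB wild type and EB Eed KO came from embryoid bodies (EBs), labelled E36 for the wild type and with no line named for the knock-out, formed without the factor in hanging drops over 48 hours, given all-trans-retinoic acid at 0.5 µM from day 2 to day 5 and kept until day 9. The libraries shCtrl and shSetd2 came from E14 ES cells, a different line, transduced with a pLKO.1 lentivirus coding for a scrambled or a Setd2-directed hairpin, selected with puromycin and harvested on day 4 after selection. The sources used here give neither the Eed allele nor whether the mutant line is 1 clone.

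Levels are given in FPKM, a fragment count divided by transcript length and library size, so those of different genes can be set side by side. A difference between libraries is that of log2(FPKM + 1), a scale on which changes of weakly expressed genes look smaller than they are. The words higher and lower follow a size rule, a difference of at least 1 (close to a factor of 2 for well-expressed genes). With 1 library per group there is no replicate spread to set a difference against, so no test was run, and the share of all expressed genes past the same rule is given instead. Expressed genes are those reaching 1 FPKM in any of the 4 ES and EB libraries of the Eed experiment, or in either library where E14 cells are compared, and all 10 genes passed in every comparison. Where genes of a list are counted as higher or lower, the total is that of its expressed genes.

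Between 11871 and 13171 genes per library reached 1 FPKM. Eed mRNA was at 72.3 and 77.8 in the ES libraries labelled wild type and Eed KO, and at 25.04 and 21.8 in the EB pair, so it does not check the knock-out labels. Setd2 was at 16.8 in shCtrl and 2.59 in shSetd2. Of 12 pluripotency markers, all were at 1 FPKM or more in the 4 ES libraries, where their summed level ran from 3457 to 4828, against 254 in EB wild type and 34.6 in EB Eed KO. In the 2 EB libraries, 10 neuronal markers summed to 552 with the wild type and 7.55 with the KO label. In the latter Map2 and Elavl4 were listed at 0.

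Mouse ES cells are known for a high demand for threonine, which mitochondrial threonine dehydrogenase (Tdh) and its partner glycine C-acetyltransferase (Gcat) split into glycine and acetyl-CoA. Glycine is then opened by the glycine cleavage system, whose decarboxylase is Gldc, and its carbon is loaded on folate. Serine, made from a glycolytic intermediate by Phgdh, Psat1 and Psph in that order, is the other main source: Shmt1 in the cytosol and Shmt2 in mitochondria turn it into glycine, and Mthfd2 and Mthfd1l carry the folate-bound carbon to formate in mitochondria. Folate-bound carbon serves the synthesis of purines and thymidylate and the methylation cycle.

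Summed over the 10 genes, the level was 605 FPKM in ES wild type, 633 in ES Eed KO, 261 in EB wild type and 242 in EB Eed KO, and 822 and 702 in shCtrl and shSetd2. The EB libraries thus held the lowest sums and the E14 libraries the highest. These sums take 1 transcript per gene, and the total FPKM differed between libraries. Over all their transcripts, the 10 genes held 0.106% of all FPKM in ES wild type and 0.124% in ES Eed KO. The share was 0.0563% in EB wild type, 0.0568% in EB Eed KO, 0.148% in shCtrl and 0.141% in shSetd2. By share the order within the EB pair was thus reversed. The makeup differed as well. The serine synthesis genes Phgdh, Psat1 and Psph made up 34.0% of the sum in ES wild type and 64.2% in EB wild type, and 40.0% and 72.5% with the KO label. Tdh and Gcat made up 23.9% and 2.46% in the wild-type pair, and 20.1% and 1.47% in the pair labelled Eed KO.

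**Figure D1:**
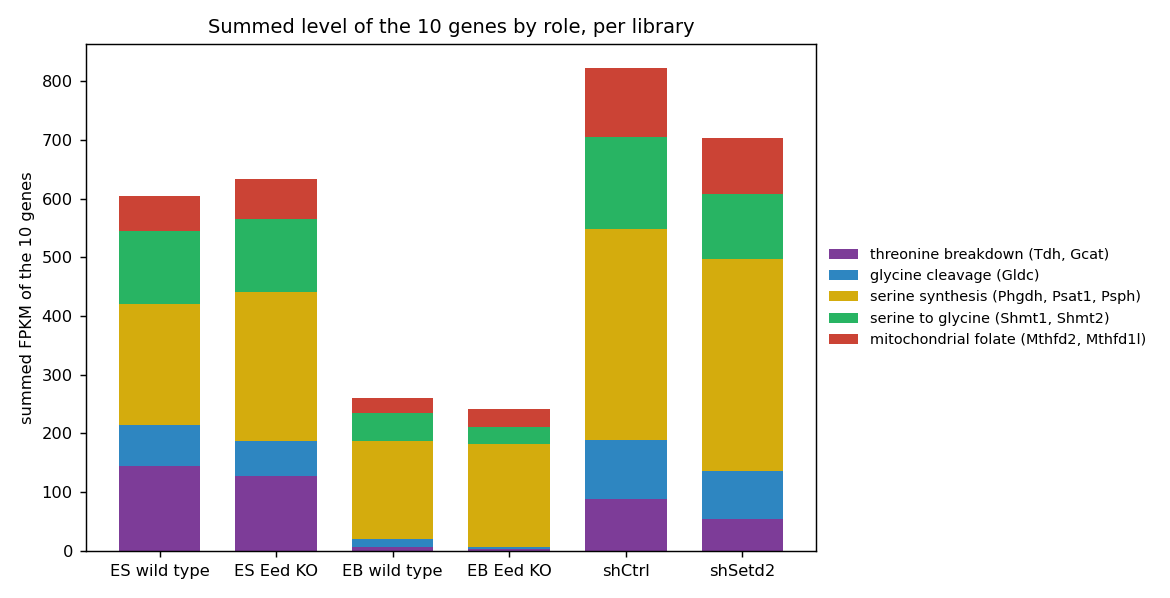
Stacked bars of the summed FPKM of the 10 genes in each of the 6 libraries, coloured by role. The EB bars reach 261 and 242, and serine synthesis fills most of each, while the threonine part is 6.42 and 3.55 there against 144 and 127 in the E36 ES libraries.

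In differentiation of wild-type cells, 6 of the 10 genes were lower in EB wild type than in ES wild type and 0 were higher, with a median difference of -1.19, against 14.2% lower and 19.3% higher (33.5% either way) of the 14772 expressed genes and a median of 0.02. In the pair labelled Eed KO, 7 were lower and 0 higher, with a median of -1.67, against 18.5% lower and 19.7% higher (38.3% either way) and a median of -0.03. Both counts include Tdh, Gcat, Gldc, Shmt1 and Mthfd1l. Rescaling libraries to equal totals moved the split of all genes from 2855 higher and 2100 lower to 4260 and 1744 in the first comparison, and from 2913 and 2738 to 4220 and 2409 in the second. It shifted the first median of all genes to 0.28, and 5 members were then lower, Mthfd2 having a difference of -0.76 (-0.90 with upper-quartile rescaling). EBs are mixtures, and in such bulk samples fewer cells of a type and less RNA per cell cannot be told apart. All 12 pluripotency markers were lower in both comparisons, and of 8 proliferation genes 3 and 5 were lower. Of 10 housekeeping genes 2 and 4 were lower and 1 was higher in each, with medians of -0.40 and -0.96. In wild-type differentiation 8 of 10 neuronal and 6 of 8 fibroblast markers were higher and 8 of 8 epithelial markers lower. Of 8 extraembryonic endoderm markers only 5 were expressed. Of those, 4 were higher in wild-type differentiation and 5 in the pair labelled Eed KO, with a median of 2.82 in each. Of 4 two-cell-like markers 3 were lower in each comparison, all of them genes of the Zscan4 family. In the pair labelled Eed KO 7 of 8 fibroblast markers were higher and 5 of 10 neuronal markers lower. Of 7 cardiac markers 5 were higher there and 1 lower, Myl7, with 19.3 FPKM in ES Eed KO and 1.23 in EB Eed KO. The part of these in the members' differences was not tested.

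Tdh (NM_021480; mm9 chromosome 14, 64111184 to 64127929), the first enzyme of threonine breakdown, had the largest range of the 10 genes. Its FPKM was 132 in ES wild type, 106 in ES Eed KO, 71.8 in shCtrl, 43.3 in shSetd2, 2.06 in EB wild type and 0.0914 in EB Eed KO. The ES libraries were all above 40 FPKM and both EB libraries at 2.06 or less. The ES libraries differ in line and label and are not replicates. The share of all genes that separate ES from EB libraries was not counted, here or for the genes below. In ES wild type it ranked 593 by level, and in EB wild type 11743, of 23421 genes. The difference in wild-type differentiation was -5.44, and 0.528% of expressed genes had one as large in size. In the pair labelled Eed KO it was -6.62, as large in size as that of 0.332%.

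Tdh was also among the 3 members lower in EB Eed KO than in EB wild type, with a difference of -1.49 (-3.49 with a pseudocount of 0.1). Its value of 0.0914 is close to the worth of single fragments (1 fragment on 1 kb gave about 0.0602 FPKM in that library), so a ratio is not given. Among ES cells it was within the size rule both in ES Eed KO against ES wild type (-0.31) and in shSetd2 against shCtrl (-0.72). The latter is beyond most genes of that pair, of which 5.56% had a difference as large in size. E14 shCtrl lay 0.86 below E36 ES wild type, a larger gap than the one between the E36 ES libraries. Chromosome 14, which holds Tdh, had a median of -0.30 between shCtrl and ES wild type. With that median taken off, the Tdh difference was -0.56.

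Gcat (NM_013847; mm9 chromosome 15, in a locus of 78861304 to 78873988 that also takes in Galr3), which cleaves the product of Tdh, was far lower than Tdh in ES cells. It had 12.7 FPKM in ES wild type, 21.01 in ES Eed KO, 16.5 in shCtrl, 10.6 in shSetd2, 4.36 in EB wild type and 3.46 in EB Eed KO. The EB libraries were again below every ES library, by a smaller factor than for Tdh. Galr3 in the same locus had its own values, between 0 and 0.128 FPKM. The difference was -1.35 in wild-type differentiation and -2.30 in the pair labelled Eed KO. The ratio of Tdh to Gcat, which does not depend on the scaling between libraries, was 10.4 in ES wild type, 5.05 in ES Eed KO, 4.34 in shCtrl, 4.10 in shSetd2 and 0.472 in EB wild type. A second Gcat transcript, NM_001161712, lay between 1.02 and 12.2 FPKM. With it added the ratios were 6.80, 3.197, 2.61, 2.79 and 0.297 in that order. Gcat had the largest difference in size of the 10 genes between ES Eed KO and ES wild type, at 0.69, within the size rule.

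**Figure D2:**
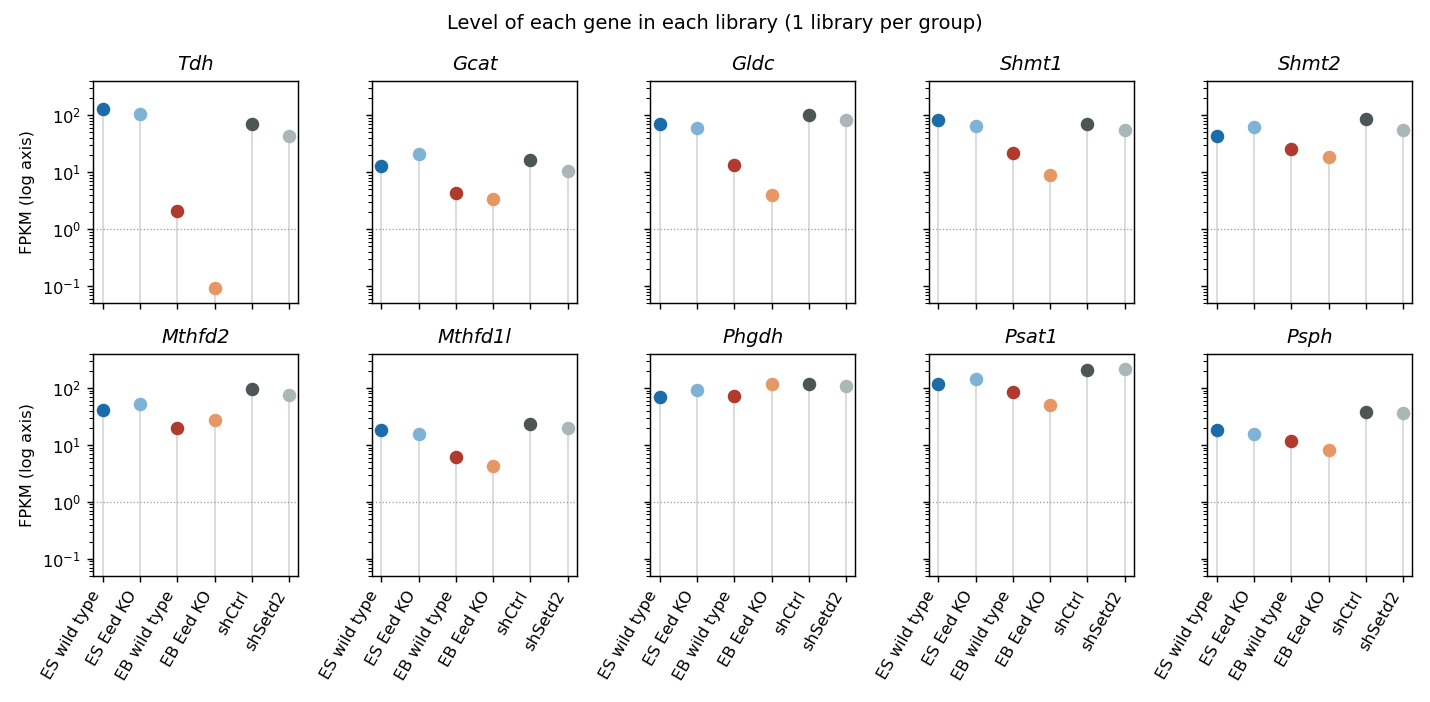
FPKM of each gene on a log axis in the 6 libraries, 1 point per library, with a dotted line at 1 FPKM. Tdh spans from 132 in ES wild type to 0.0914 in EB Eed KO, while Phgdh stays between 70.1 and 118.

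Gldc (NM_138595; mm9 chromosome 19, 30172937 to 30249908), the glycine decarboxylase, had 69.8 FPKM in ES wild type, 60.1 in ES Eed KO, 99.7 in shCtrl, 82.9 in shSetd2, 13.7 in EB wild type and 3.96 in EB Eed KO. Every ES library was above 60 FPKM and both EB libraries below 14. The difference was -2.27 in wild-type differentiation and -3.62 in the pair labelled Eed KO. Between the EB libraries it was -1.57. The other proteins of the cleavage system are Amt, the aminomethyltransferase, Gcsh, the lipoyl carrier, and Dld, a dehydrogenase shared with other mitochondrial complexes. Gcsh went from 137 in ES wild type to 53.05 in EB wild type and was lower by the size rule. Amt went from 33.7 to 20.7, and Dld from 44.7 to 47.8, both within it. Between the EB libraries Gcsh (-0.82), Amt (-0.81) and Dld (-0.32) were all within the size rule.

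Shmt1 (NM_009171; mm9 chromosome 11, 60602399 to 60624767), the cytosolic serine hydroxymethyltransferase, had 81.9 FPKM in ES wild type, 63.8 in ES Eed KO, 70.0 in shCtrl, 54.5 in shSetd2, 22.2 in EB wild type and 9.11 in EB Eed KO. The ES libraries were all above 50 and the EB libraries all below 25. Its difference was -1.84 in wild-type differentiation, -2.68 in the pair labelled Eed KO and -1.20 between the EB libraries. Chromosome 11 as a whole was lower in both libraries labelled Eed KO, with medians over its 1204 expressed genes of -0.45 in ES cells and -0.62 in EBs. With the chromosome's median taken off, the Shmt1 difference between the EB libraries was -0.58, within the size rule. The same chromosome had a median of -0.49 between shCtrl and ES wild type, neither of which is labelled as mutant.

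Shmt2 (NM_028230; mm9 chromosome 10, in a locus of 126951995 to 126959500 that also takes in Ndufa4l2), the mitochondrial form, had 43.6 FPKM in ES wild type, 61.2 in ES Eed KO, 86.1 in shCtrl, 56.1 in shSetd2, 25.4 in EB wild type and 18.5 in EB Eed KO. The EB libraries were lowest, but the step from ES wild type to EB wild type (-0.75) was within the size rule, and that from ES Eed KO to EB Eed KO (-1.67) was past it. The ratio of Shmt2 to Shmt1 was 0.532 in ES wild type, 0.959 in ES Eed KO, 1.14 in EB wild type, 2.03 in EB Eed KO, 1.23 in shCtrl and 1.03 in shSetd2. The cytosolic form was therefore the more abundant mRNA in both E36 ES libraries and the mitochondrial form in the other 4. A second Shmt2 transcript lay between 8.58 and 24.8 FPKM. With it added, the ratio was above 1 also in ES Eed KO, at 1.35. Chromosome 11, with Shmt1, had medians of -0.45 in ES Eed KO and -0.49 in shCtrl, each against ES wild type. Between the EB libraries it had -0.62. Chromosome 10, with Shmt2, had -0.05, -0.05 and -0.10 in that order. The part of these chromosome medians in the ratios was not tested.

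The regions before the start of Gldc, Shmt1 and Phgdh are shown to set the promoters of 2 genes that were lower in both differentiation comparisons beside that of Phgdh, which was within the size rule in both, as was Psph. RefSeq sequence of the GRCm38.p6 build was matched for 9 of the 10 genes, with 10 start sites, 2 of them of Psat1. Tdh had no match, so its promoter is not among the windows counted or searched below. Each run below holds the 250 bases before the start, on the gene's own strand, and capitals mark CG dinucleotides, the sites of DNA methylation that are dense in the CpG islands where Polycomb complexes bind.
Gldc, chr19:30175442-30175691, minus strand: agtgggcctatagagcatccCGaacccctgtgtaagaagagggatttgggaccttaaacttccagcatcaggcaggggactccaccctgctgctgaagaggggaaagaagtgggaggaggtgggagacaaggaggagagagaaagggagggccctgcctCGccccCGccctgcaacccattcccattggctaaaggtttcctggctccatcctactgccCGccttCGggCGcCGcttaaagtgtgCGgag
Shmt1, chr11:60811266-60811515, minus strand: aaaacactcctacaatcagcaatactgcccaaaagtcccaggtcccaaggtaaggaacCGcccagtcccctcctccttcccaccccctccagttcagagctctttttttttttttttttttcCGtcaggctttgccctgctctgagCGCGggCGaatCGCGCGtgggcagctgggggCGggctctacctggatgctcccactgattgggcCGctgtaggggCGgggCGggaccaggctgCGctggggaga
Phgdh, chr3:98339970-98340219, minus strand: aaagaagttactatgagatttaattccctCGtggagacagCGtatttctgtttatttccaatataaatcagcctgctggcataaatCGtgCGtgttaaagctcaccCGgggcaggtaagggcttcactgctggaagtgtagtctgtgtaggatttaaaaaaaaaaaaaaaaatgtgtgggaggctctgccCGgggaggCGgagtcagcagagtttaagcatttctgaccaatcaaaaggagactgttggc
These windows hold 8, 13 and 7 CG dinucleotides. Over the 10 member windows the count ran from 7 to 24, and all 10 were above the median of 6 over 32544 distinct promoters, as were 46.6% of those. Motifs were searched on both strands, from 250 bases before to 50 after each start. The amino acid response core TGATGNAA, in 3.91% of all promoters, and the octamer ATTTGCAT, in 1.75%, were in 0 of the 10 member windows. The E-box CACGTG, in 7.17%, was in 1, that of Gcat, and TATAAA, in 13.6%, in 1, that of Phgdh.

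Mthfd2 (NM_008638; mm9 chromosome 6, 83255698 to 83267598), the mitochondrial dehydrogenase and cyclohydrolase, had 41.0 FPKM in ES wild type, 52.1 in ES Eed KO, 94.2 in shCtrl, 73.7 in shSetd2, 19.6 in EB wild type and 27.2 in EB Eed KO. Both EB libraries were below every ES library, and the E14 libraries were highest. Its difference was -1.03 in wild-type differentiation, just past the size rule, and -0.91 in the pair labelled Eed KO. It was 0.34 between the ES libraries and 0.46 between the EB libraries, where chromosome 6 had medians of 0.38 and 0.31. Its close relative Mthfd2l was at 1.54 in ES wild type and 9.16 in EB wild type, higher by the size rule. The ratio of Mthfd2 to Mthfd2l was 26.6 in ES wild type, 2.13 in EB wild type and 6.68 in EB Eed KO.

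Mthfd1l (NM_172308; mm9 chromosome 10, 6179460 to 6373466), the mitochondrial enzyme that releases formate, had 18.6 FPKM in ES wild type, 15.6 in ES Eed KO, 23.0 in shCtrl, 20.1 in shSetd2, 6.07 in EB wild type and 4.24 in EB Eed KO. It was lower in both differentiation comparisons, at -1.47 and -1.66 (-1.04 for the latter summed over transcripts). A second transcript, NM_001170786, had 13.1 in ES wild type, 4.99 in ES Eed KO, 3.17 in EB wild type and 5.23 in EB Eed KO, so its order among libraries differed from that of the first. Summed over its transcripts, the gene's difference between the EB libraries was 0.03 in place of -0.43. The division of reads between transcripts was made by the authors' software and cannot be checked here. The cytosolic counterpart Mthfd1, which carries the same reactions outside mitochondria, went from 79.2 in ES wild type to 17.002 in EB wild type, a difference of -2.15.

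**Figure D3:**
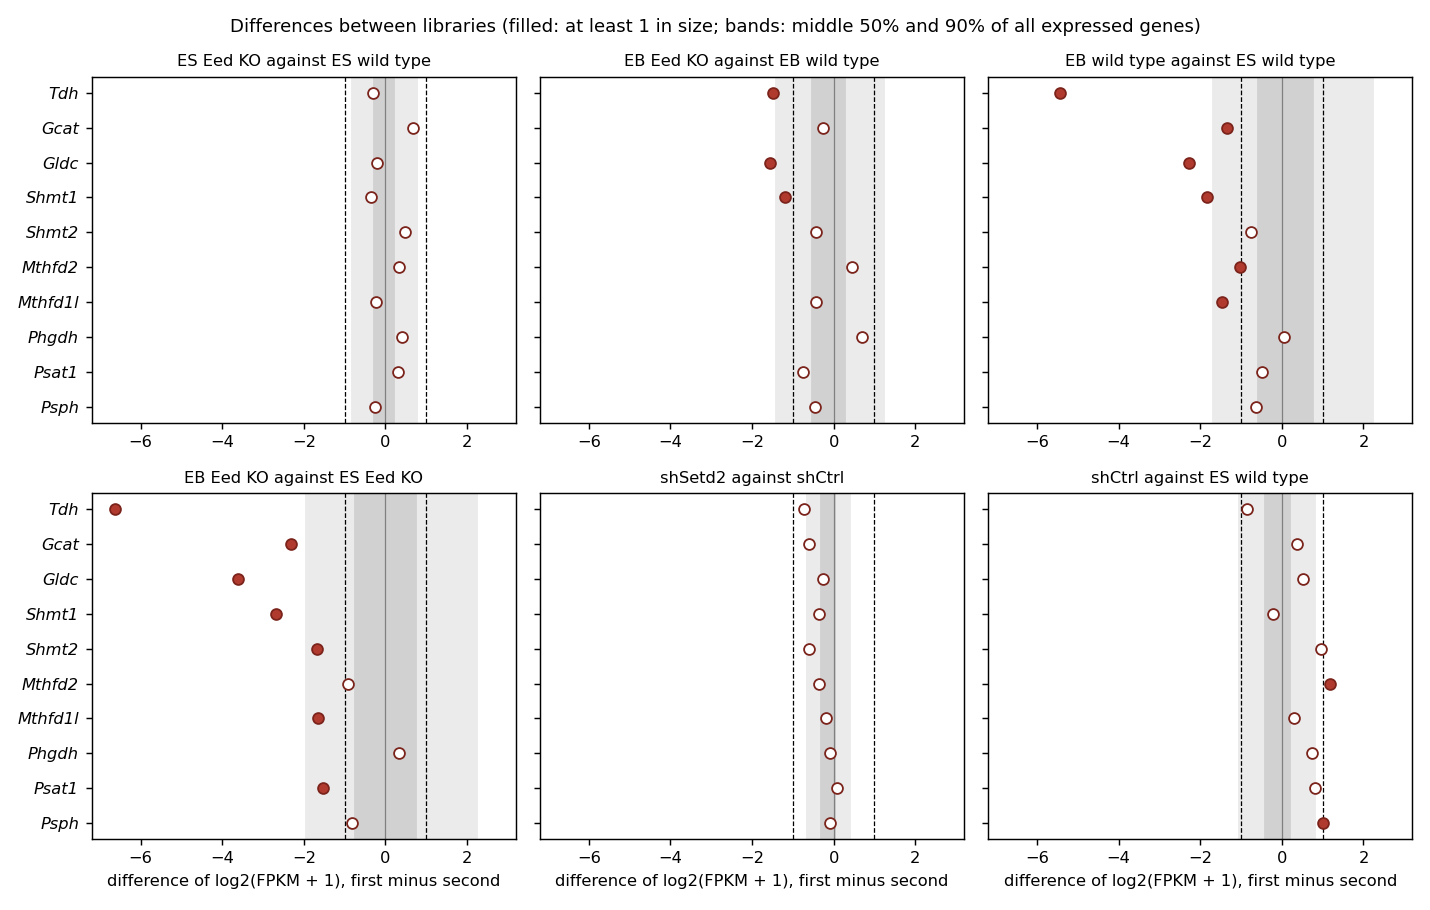
Difference of log2(FPKM + 1) for each gene in 6 comparisons, with filled points at least 1 in size, dashed lines at the size rule, and grey bands for the middle of all expressed genes. Tdh, Gldc and Shmt1 are filled in both differentiation panels and in the EB Eed KO panel. The ES Eed KO and shSetd2 panels hold no filled point.

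Phgdh (NM_016966; mm9 chromosome 3, 98117094 to 98143892), the dehydrogenase that opens serine synthesis, was the only one of the 10 genes whose EB levels were not both below the ES levels of the Eed experiment. It had 70.1 FPKM in ES wild type, 93.1 in ES Eed KO, 118 in shCtrl, 110 in shSetd2, 72.1 in EB wild type and 118 in EB Eed KO. Its difference in wild-type differentiation was 0.04 and in the pair labelled Eed KO 0.33. Between the EB libraries it was 0.70, within the size rule, on a chromosome whose expressed genes had a median of 0.32 there. Phgdh ranked 448 of 23421 genes by level in EB Eed KO, the highest rank of the 10 genes in that library. The ratio of Phgdh to Tdh was 0.532 in ES wild type and 35.1 in EB wild type, and that of Phgdh to Gldc was 1.004 and 5.27.

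Psat1 (NM_177420; mm9 chromosome 19, 15979613 to 15999549), the aminotransferase of the middle step, had 117 FPKM in ES wild type, 145 in ES Eed KO, 205 in shCtrl, 215 in shSetd2, 83.5 in EB wild type and 49.5 in EB Eed KO. It was within the size rule in wild-type differentiation (-0.48) and past it in the pair labelled Eed KO (-1.53). Phgdh and Psat1 differed in opposite directions between the EB libraries, Psat1 at -0.74 and neither past the size rule, and their ratio was 0.864 in EB wild type and 2.38 in EB Eed KO. In the 4 ES libraries that ratio was between 0.510 and 0.642. Psph (NM_133900; mm9 chromosome 5, 130271434 to 130293129), the phosphatase of the last step, was the least abundant of the 3. It had 18.5 FPKM in ES wild type, 15.3 in ES Eed KO, 38.2 in shCtrl, 35.7 in shSetd2, 11.6 in EB wild type and 8.28 in EB Eed KO. Its differences of -0.63 and -0.81 in differentiation were within the size rule.

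The effect of losing the Polycomb subunit in undifferentiated cells is addressed by the 2 ES libraries of the Eed experiment. For these 10 genes, 0 were past the size rule, with differences from -0.36 (Shmt1) to 0.69 (Gcat), against 5.84% of all 14772 expressed genes (2.82% higher and 3.01% lower). Their median was 0.05 and that of all genes -0.03. Rescaling to equal totals moved the split of all genes from 417 higher and 445 lower to 774 and 461. Of the marker lists, trophoblast markers had 4 of 5 higher (median 1.18), Esx1 going from 0.782 to 15.0 FPKM. Among the other lists, 2 of 12 pluripotency and 3 of 7 cardiac markers were higher, and 1 cardiac marker, Actc1, was lower. Of 8 epithelial markers 2 were lower, and of 8 fibroblast markers 3 were higher and 3 lower. Hand1, which was higher, counts in both the trophoblast and the cardiac list. With the E14 shCtrl library as the control, 1 gene, Psph, was past the rule at -1.27, against 9.33% of expressed genes. The differences of Tdh, Shmt2, Mthfd2, Phgdh and Psat1 then had the opposite sign, all within the rule.

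In the comparison of the EB libraries, 3 genes were lower in EB Eed KO, Tdh, Gldc and Shmt1, and 0 were higher, with a median of -0.44. Of all expressed genes 9.82% were lower and 7.68% higher (17.5% either way), with a median of -0.14. The split of all genes was 1135 higher and 1450 lower. It became 1355 and 1156 after rescaling by median of ratios, and 1352 and 1025 with chromosome medians taken off. The same 3 members were lower under each of the 3 rescalings, but 2 with chromosome medians taken off, Shmt1 then being at -0.58. Marker lists moved in this pair too: 9 of 12 pluripotency markers, 10 of 10 neuronal and 7 of 8 neural progenitor markers were lower. Of the listed genes expressed, 5 of 7 cardiac, 5 of 8 fibroblast and 7 of 8 epithelial markers were higher. So were 4 of 5 extraembryonic endoderm and 2 of 5 trophoblast markers, with Hand1 on both the cardiac and the trophoblast list. Lower were 1 of 7 cardiac and 2 of 4 two-cell-like markers, the latter of the Zscan4 family. Summed levels were 258 and 11.045 FPKM for the neural progenitor list in EB wild type and EB Eed KO, with Fabp7 and Hes5 listed at 0 in the latter, and 1122 and 2102 for the fibroblast list. Their part in the members' differences was not tested. The difference between the EB and the ES effect of the Eed label was past the size rule for Tdh (-1.18, or -3.18 with a pseudocount of 0.1), Gldc (-1.35) and Psat1 (-1.05), against 19.2% of all genes (9.13% higher and 10.1% lower). Psat1 fell short of the rule, at -0.95, with median-of-ratios rescaling or chromosome medians taken off, and at -0.99 with upper-quartile rescaling. Gcat, at -0.95, was past it at -1.28 when summed over transcripts.

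**Figure D4:**
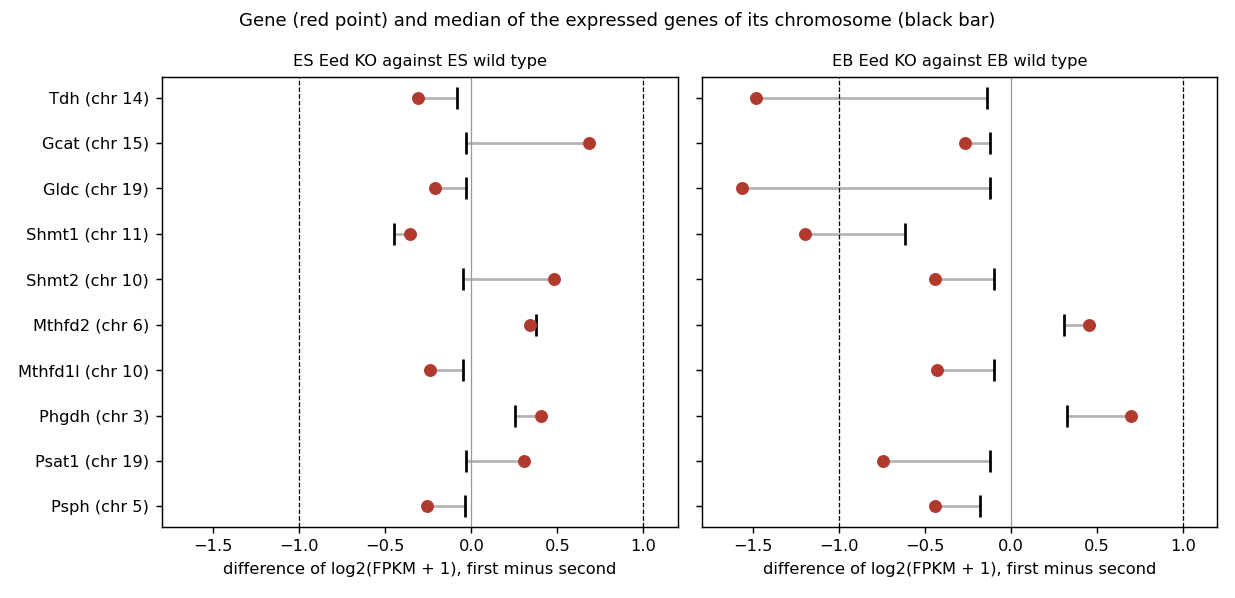
Difference of each gene (red point) in both Eed comparisons beside the median of the expressed genes of its chromosome (black bar), with dashed lines at the size rule. Chromosome 11, which holds Shmt1, lies at -0.45 and -0.62, and chromosomes 3 and 6, which hold Phgdh and Mthfd2, lie between 0.26 and 0.38.

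The comparison of shSetd2 against shCtrl asks what a knock-down of the histone H3 lysine 36 methyltransferase Setd2 does. Setd2 mRNA remained at 2.59 FPKM in shSetd2, against 16.8 in shCtrl. In this pair 0 of the 10 genes were past the size rule, against 2.41% of 12317 expressed genes (0.706% higher and 1.7% lower). Of all genes 87 were higher and 210 lower, or 200 and 220 with equal totals. The members' median was -0.31 and that of all genes -0.13. The most negative differences were those of Tdh (-0.72), Shmt2 (-0.61) and Gcat (-0.60), and the serine synthesis genes lay between -0.10 and 0.07. Of 12 pluripotency markers 1 was lower, and the list's median was -0.41. Of 4 extraembryonic endoderm markers 2 were lower.

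The control libraries of the 2 lines differed for these genes. Between shCtrl (E14) and ES wild type (E36), Mthfd2 (1.18) and Psph (1.01) were higher by the size rule and 0 were lower, against 3.14% of 12747 genes higher and 5.65% lower (8.79% either way). The split of all genes was 400 higher and 720 lower. It became 484 and 558 after rescaling by median of ratios, and 506 and 500 with chromosome medians taken off. Shmt2 was at 0.97 (1.10 with median-of-ratios rescaling), Psat1 at 0.80 and Phgdh at 0.74, and the members' median was 0.63 against -0.10 for all genes. In the list of genes of the amino acid and stress response led by Atf4, together with Myc and Mycn, 6 of 10 were higher and 1 lower, with a median of 1.19. Among them were Nupr1, a stress-induced chromatin protein (3.48 in ES wild type and 58.0 in shCtrl), the transcription factor Ddit3 (4.68 and 16.7) and the pseudokinase Trib3 (8.06 and 26.4). Of the markers 3 of 12 pluripotency ones were higher, as were 2 of 4 of extraembryonic endoderm (median 1.12). Also higher were 4 of 4 two-cell-like ones (median 1.10), 3 of them genes of the Zscan4 family. Lower were 6 of 8 epithelial and 4 of 6 fibroblast ones. Line, lentivirus and puromycin differ together between these libraries and cannot be told apart.

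Lists of neighbouring pathways are read against all expressed genes, of which 14.2% were lower and 19.3% higher in wild-type differentiation, and 18.5% and 19.7% in the pair labelled Eed KO. In wild-type differentiation, 7 of 11 purine synthesis genes were lower and 0 higher, with a median of -1.10. Gart, the trifunctional purine enzyme, went from 151 to 31.2 FPKM and Atic, the enzyme of the last steps, from 138 to 32.7. Of 5 transsulfuration and glutathione genes, 3 were lower and 0 higher (median -2.20), with Cth, the cystathionine lyase, at 26.1 and 2.14 and Cbs, the synthase before it, at 5.86 and 0.0110. Of 15 genes of the methionine cycle, 5 were lower and 1 higher (median -0.52). Of 15 other folate genes, 3 were lower and 2 higher (median -0.55). Folr1, a folate receptor, had 5.15 and 0.0505, and Aldh1l2, a mitochondrial folate dehydrogenase, was higher with 0.280 and 3.94. Serine and neutral amino acid transporters had 3 lower and 2 higher of 10 (median -0.26), and the Atf4 and Myc list 3 lower and 1 higher of 10 (median -0.65). In the pair labelled Eed KO the purine list had 8 lower and 1 higher, the transsulfuration list 4 lower and 0 higher, the methionine list 8 and 1, and the other folate genes 7 and 2.

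**Figure D5:**
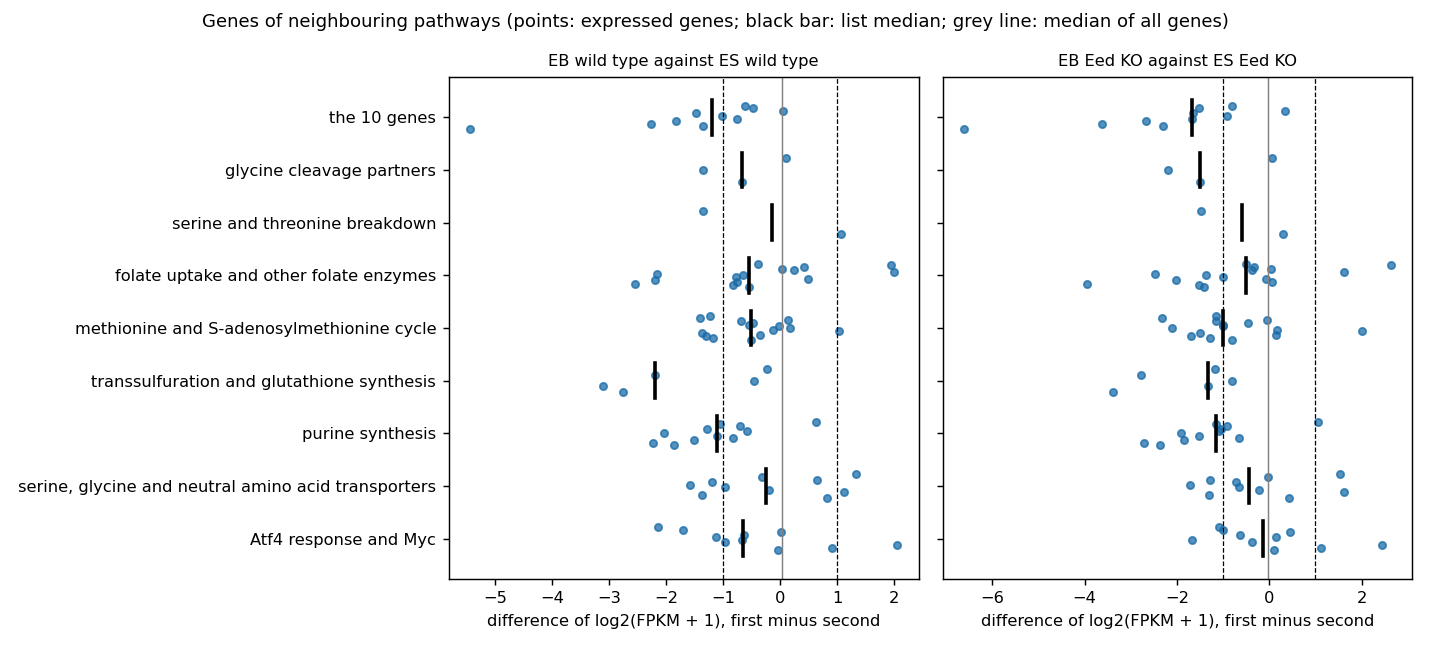
Difference of log2(FPKM + 1) for the expressed genes of each list in both differentiation comparisons, 1 point per gene, with black bars at list medians. The medians of the 10 genes are -1.19 and -1.67, and those of purine synthesis -1.10 and -1.17.

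Between the EB libraries 9.82% of all expressed genes were lower and 7.68% higher, and several lists had counts near those shares. Cth went from 2.14 in EB wild type to 17.002 in EB Eed KO and was the 1 of 5 transsulfuration genes that was higher, on chromosome 3, with 0 lower. Slc7a11, the cystine transporter, went from 21.1 to 4.23 and was the most negative of the 3 of 10 transporters that were lower, with 0 higher. Of 11 purine genes 2 were lower, Gart and Pfas, and 1 higher. Pfas, at -1.21, lies on chromosome 11, whose expressed genes had a median of -0.62 there. Of 15 methionine cycle genes 1 was lower and 1 higher, Ahcyl1 being the latter with 64.7 and 170. In ES Eed KO against ES wild type these lists had 0 or 1 genes past the rule in each direction, among them Folr1, with 5.15 and 19.5. The Atf4 and Myc list had 2 lower, Sesn2, a leucine sensor (27.05 and 7.51), and Mycn (110 and 40.4).

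The profiles most like that of Tdh over the 6 libraries were sought among 11214 other genes that reached 5 FPKM, by the mean absolute difference between log2(FPKM + 1) profiles, each centred on its own mean. They were Platr10, a long non-coding RNA of ES cells (0.27), Trh, the thyrotropin-releasing hormone precursor (0.31), Lin28a, an RNA-binding protein of early embryos (0.32), L1td1, another such protein (0.34), and Dppa4, a chromatin factor of pluripotent cells (0.38). Lin28a had 187 FPKM in ES wild type, 133 in ES Eed KO, 5.08 in EB wild type and 0.651 in EB Eed KO. Among the 10 genes themselves, the profile nearest to Tdh was that of Gldc, at 1.10, and the farthest that of Phgdh, at 2.42. The closest pair was Psat1 and Psph, at 0.20. For Gldc the nearest were Tcf15 and Set (0.22 and 0.23), for Shmt1 Tubb4b and Thop1 (0.10 and 0.12), for Gcat Tigar and Smg5 (0.07 and 0.09), for Mthfd2 Gtf2h1 and Gpd2 (0.14 and 0.15), and for Mthfd1l Glud1 and Exosc2 (0.05 and 0.07).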

How the data were processed

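RNA was measured in 6 libraries of mouse ES cells and EBs, prepared with the TruSeq RNA kit, per the labels' protocols. That kit selects poly(A) RNA and does not mark strand. The deposited values are FPKM per RefSeq transcript, made by the authors with TopHat and Cuffdiff on mm9, per the submitters' processing notes. The sources used here give no versions, annotation release or method of scaling libraries. The 12 ChIP samples were not analysed here.

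Symbols came from a RefSeq table of GRCm38.p6 (29300 transcripts matched, 551 not), and each gene was represented by its most abundant transcript on average. Starts were counted from 1. Differences used log2(FPKM + 1), with a pseudocount of 1 (Python 3.11.15, pandas 2.3.3), and the functions were tested on simulated data. Sequencing totals are unknown. From low values of transcripts spanning 800 to 1500 bases, 1 fragment on 1 kb was worth 0.0422 to 0.0602 FPKM.

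The 10 genes and the 21 lists were chosen with earlier results of these data known. Named are all members, up to 4 genes per list and comparison that passed the size rule, and up to 5 nearest profiles. Amt and Dld, which did not pass it, are named besides, chosen after their values were seen.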

Additional observations from a re-analysis of the deposited data

How the results depend on the processing

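There were 8 alternatives per comparison, and 1 more control library in 2 of them. Rescaling by upper quartile, by median of ratios or to equal totals, a pseudocount of 0.1, sums over transcripts, no filter on low values and chromosome medians taken off kept each count of members past the size rule within 1.5 times its value or at 0. With a factor of 1.5 as the rule, counts are given beside the share of all expressed genes past it. In wild-type differentiation the count was 8 (55.1%). In differentiation of the pair labelled Eed KO, 59.5% of all expressed genes were past this looser rule. Counts were 1 for ES Eed KO against ES wild type (18.9%) and 5 for EB Eed KO against EB wild type (37.3%). For the difference between those effects the count was 6 (39.1%). It was 3 for shSetd2 against shCtrl (9.15%) and 6 for shCtrl against ES wild type (25.2%). With shCtrl as the control of ES Eed KO the count was 1, against 9.33% of expressed genes past the size rule. With shCtrl in place of ES wild type in wild-type differentiation, chosen after the data were seen, 9 members were lower. Of all 14071 expressed genes 1983 were lower and 3409 higher there. No past-rule difference of a member changed sign. No paired analysis was possible because each group has 1 library. Depth limits the EB value of Tdh.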
